A study of Mus musculus with 24 samples.

Results

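The MHC and antigen processing genes described here are the protein-coding genes of the mouse whose symbol starts with H2-, together with B2m, Tap1, Tap2, Tapbp, Cd74, Ciita, Nlrc5, Psmb8, Psmb9 and Psmb10. The name rule found 42 genes, 7 of them pseudogenes, which left 35 genes of the 29716 in the count table, or of the 17519 that are protein-coding. All 35 had at least 1 count in some library, and 30 of them lie on chromosome 17. They were measured by RNA-seq in 24 libraries of cells sorted from C57BL/6J mouse embryos at E10.5, in a study whose title concerns the Notch ligand Dll4, hemogenic cells of the aorta and stem cell output. Its design asks which genes differ between cells given the antibody to Dll4 and cells not given it.

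There were 6 groups of 4 libraries. Kit+ CD45+ cells came from embryos given anti-Dll4 or, as the control, an anti-human IgG. Kit+ CD45- cells came from embryos given anti-Dll4 or IgG, and so did Kit- CD41+ CD45- cells, called Kit- CD41+ cells hereafter. All 6 groups were sorted as CD31+, had no labelled genetic change, and shared the same handling: antibody injected into the heart, then 5 h of culture at 37 °C with 5 µg/ml of that antibody, 10 ng/ml interleukin-3 and 10 µM hydrocortisone. CD31 is a surface protein of endothelium and platelets, Kit is the stem cell factor receptor, CD45 (gene Ptprc) marks committed blood cells and CD41 (gene Itga2b) marks early blood cells and megakaryocytes. The sources used here give neither the region of the embryo that was digested nor the number of embryos behind a library.

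MHC class I molecules are heavy chains (H2-K1 and H2-D1 in this strain, and the class Ib chains of the Q, T and M regions) bound to the light chain beta-2 microglobulin, and they show peptides from the cytosol at the cell surface. The peptides are cut by the proteasome, whose catalytic subunits can be exchanged for the immunoproteasome subunits Psmb8, Psmb9 and Psmb10, pumped into the endoplasmic reticulum by Tap1 and Tap2, and loaded with the help of tapasin (Tapbp). Class II molecules are pairs of an alpha and a beta chain that carry endosomal peptides, with the invariant chain Cd74 and H2-DM as helpers, and are known from B cells, dendritic cells and macrophages. Nlrc5 and Ciita are the coactivators of class I and class II promoters.

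The promoters of several class I genes share a short stretch, shown because it is carried both by genes that were higher in Kit+ CD45+ cells (B2m, H2-K1, H2-D1 and H2-M3) and by H2-Q7, which passed in no comparison. In each line the capitals mark TGACG, the core of the X2 box, and ATTGG, the CCAAT box read from the other strand (Y box). Sequences are from RefSeq promoters of GRCm38.p6, read 5′ to 3′ in the direction of the gene.
B2m: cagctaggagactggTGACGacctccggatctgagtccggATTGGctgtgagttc
H2-K1: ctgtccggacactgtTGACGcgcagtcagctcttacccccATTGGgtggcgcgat
H2-D1: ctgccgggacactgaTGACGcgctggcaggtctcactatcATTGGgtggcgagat
H2-M3: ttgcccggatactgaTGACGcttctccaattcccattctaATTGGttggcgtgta
H2-Q7: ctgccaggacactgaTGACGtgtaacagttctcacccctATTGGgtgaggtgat
H2-Aa: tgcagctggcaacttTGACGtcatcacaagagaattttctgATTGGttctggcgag
The windows lie at chr2:122147594-122147648 on the plus strand for B2m, chr17:34000349-34000403 on the minus strand for H2-K1, chr17:35262978-35263032 on the plus strand for H2-D1, chr17:37270173-37270227 on the plus strand for H2-M3, chr17:35439076-35439129 on the plus strand for H2-Q7 and chr17:34287857-34287912 on the minus strand for H2-Aa. ATTGG starts 25 bases after the start of TGACG in the first 4 windows, 24 bases after it in H2-Q7 and 26 bases after it in the class II gene H2-Aa.

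The spacing was chosen after these promoters had been read. On the gene's own strand, TGACG followed by ATTGG at a spacing of 24 to 26 bases was present in 38 of 32851 RefSeq promoters (0.116%), and at 25 to 26 bases in 31, each reaching from 250 bases before to 50 bases after the gene's start. Of the 35 genes, 28 had an entry in that table, with 30 promoters in all, and 6 genes held the pair at 24 to 26 bases, 5 of them at 25 to 26. Searched on both strands, TGACG alone was in 11 of the 30 promoters and in 20.8% of all promoters, and CCAAT was in 24 of the 30 and in 37.4% of all. The core of the interferon-stimulated response element was in 3 of the 30 promoters, against 3.44% of all, and the STAT site TTCNNNGAA was in 3 of the 30, against 8.3% of all. A kappaB-type motif was in 12 of the 30, against 20.7% of all. Such matches describe letters only, and H2-Aa, which holds the pair, had 8 counts over the 24 libraries.

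Between 18 and 26 of the 35 genes were detected in a library, at totals of 8718351 to 11379830 counts. Levels are given as CPM, counts scaled to a common library size with TMM factors (the trimmed-mean scaling of edgeR), and each mean has its SD over 4 libraries. Differences between groups are log2 fold changes with their standard error (SE) from edgeR's quasi-likelihood test over all 24 libraries, with p adjusted by Benjamini-Hochberg over 15618 genes and a threshold of 0.05. Of the 35 genes 21 passed the filter on low counts and were tested. The 14 that did not pass are Ciita, Nlrc5, H2-Aa, H2-Eb2, H2-Ob, H2-DMb1, H2-DMb2, H2-Q1, H2-Q4, H2-Q6, H2-Q10, H2-M5, H2-M10.2 and H2-T3, and 10 of the 35 averaged under 1 count per library. A gene that is high in a single group passes the filter through that group.

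Sorting marker transcripts matched the gates: Ptprc ranged from 53.0 to 117 CPM in Kit+ CD45+ libraries and reached at most 1.51 CPM elsewhere, and Kit was at or above 21 CPM in every Kit+ library and at or below 5.22 CPM in every Kit- CD41+ library. Globin genes took at most 0.0226% of counts in Kit+ CD45+ libraries, 16.8% to 49.3% in Kit+ CD45- libraries and 4.18% to 14.1% in Kit- CD41+ libraries. Counts of 16 macrophage markers, summed, were 1579 to 3198 CPM under anti-Dll4 and 507 to 3632 CPM under IgG in Kit+ CD45+ libraries. The same sum was 105 to 124 CPM (anti-Dll4) and 98.1 to 196 CPM (IgG) in Kit+ CD45- libraries, and 941 to 1090 CPM (anti-Dll4) and 988 to 1102 CPM (IgG) in Kit- CD41+ libraries. All 16 were detected, meaning any count in any library of the group, in both Kit+ CD45+ groups and in the Kit- CD41+ IgG group. In the Kit- CD41+ IgG group Ctss had 2 counts, in 1 library, and Ptprc was at 0 CPM. Adgre1 and Ctss had no count in either Kit+ CD45- group or in the Kit- CD41+ anti-Dll4 group.

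Under IgG, Kit+ CD45+ cells had higher levels of 7 genes than Kit+ CD45- cells and lower levels of none: B2m, H2-K1, H2-D1, H2-M3, Psmb8, Psmb9 and Cd74. They are the class I light chain, the 2 classical class I heavy chains, 1 class Ib chain, 2 immunoproteasome subunits and the invariant chain. They are 7 of 21 tested, and of all genes tested 19.2% passed, 10.0% as higher and 9.18% as lower. The median log2 fold change was 0.95 over the 21 genes and 0.04 over all genes. Psmb9, Cd74 and Tap1 were near the floor outside Kit+ CD45+ cells and passed the filter through those cells. Such genes could hardly be found lower in Kit+ CD45+ cells, so the counts and medians of comparisons with that population lean toward higher. Between Kit+ CD45+ and Kit- CD41+ cells under IgG, 8 were higher, the same 7 and Tap1, and 4 were lower, Tapbp, H2-T22, H2-T23 and H2-T24, where 37.2% of all genes passed, 19.7% as higher and 17.5% as lower; the medians were 0.43 over the 21 genes and 0.05 over all. Between Kit+ CD45- and Kit- CD41+ cells under IgG, 2 were lower, Tapbp and H2-T23, where 27.9% of all genes passed, 14.0% as higher and 13.8% as lower, a share above the members' own. That count of 2 was 4 without Kit+ CD45- IgG replicate 1 and 6 without Kit+ CD45- IgG replicate 4. The 3 comparisons share libraries with each other. Without Kit+ CD45+ IgG replicate 1, the library with the lowest sum of macrophage markers, the first comparison gave 7 and the second 11. In bulk samples fewer cells of a type and less RNA per cell cannot be told apart.

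**Figure D1:**
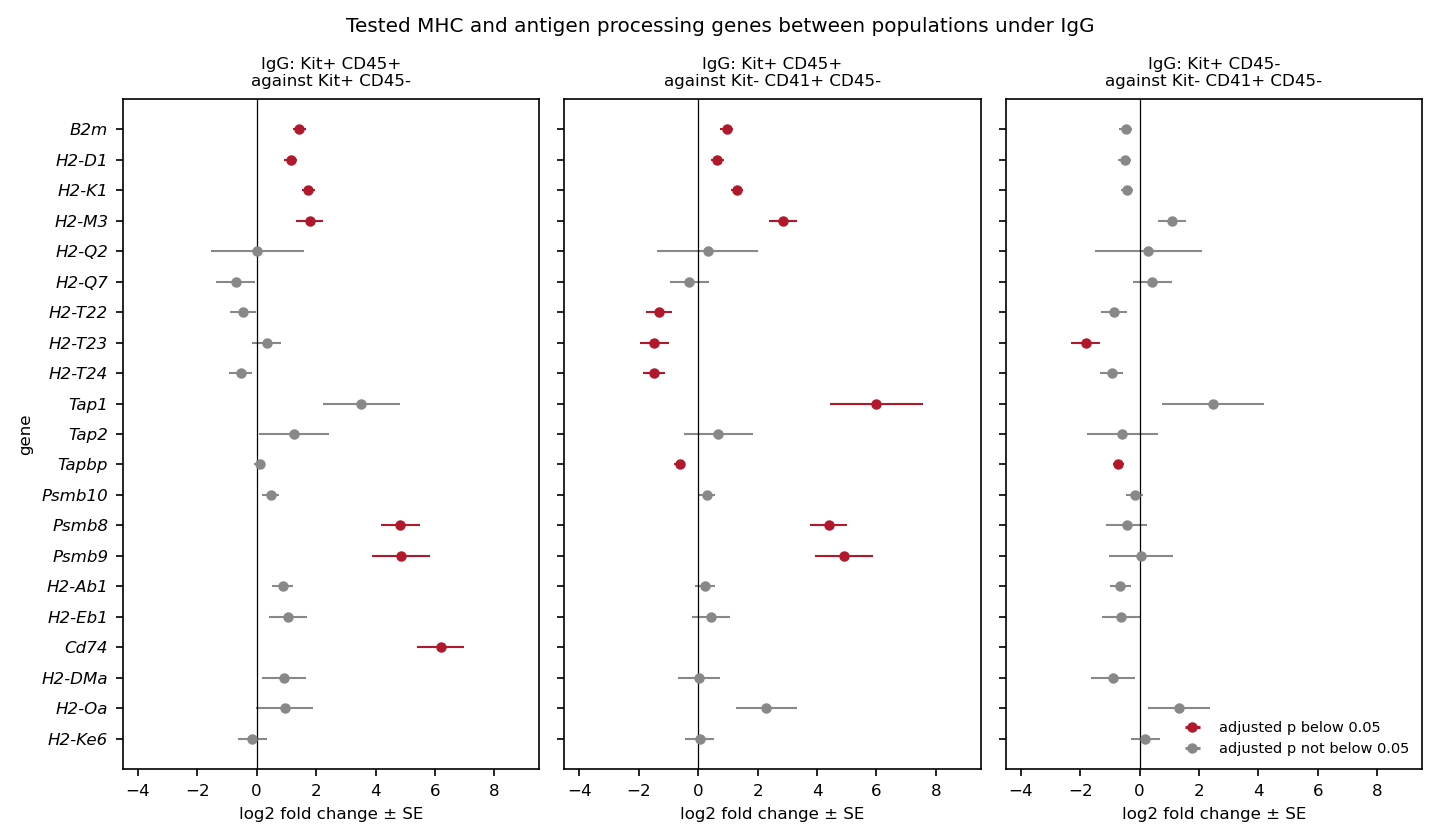
Log2 fold change ± SE (x axis) of the 21 tested genes (y axis, ordered by role) for the 3 population comparisons under IgG; red points passed an adjusted p of 0.05. Psmb8, Psmb9 and the class I chains B2m, H2-D1, H2-K1 and H2-M3 lie right of 0 in both Kit+ CD45+ comparisons, H2-T22, H2-T23, H2-T24 and Tapbp lie left of 0 against Kit- CD41+ cells, and Cd74 is not drawn where a group had 0 counts.

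Beta-2 microglobulin was the most abundant member. In Kit+ CD45+ cells B2m had 985, 765, 591 and 532 CPM under anti-Dll4 and 391, 824, 622 and 813 CPM under IgG. In Kit+ CD45- cells it had 325, 169, 164 and 229 CPM under anti-Dll4 and 238, 268, 259 and 217 CPM under IgG. In Kit- CD41+ cells it had 384, 312, 301 and 354 CPM under anti-Dll4 and 326, 328, 337 and 368 CPM under IgG. The lowest Kit+ CD45+ library, IgG replicate 1, was thus above every library of the other populations. Under IgG the log2 fold change of Kit+ CD45+ cells was 1.43 (SE 0.22) against Kit+ CD45- cells and 0.96 (SE 0.22) against Kit- CD41+ cells, with edgeR adjusted p of 5.8e-05 and 0.00131. B2m spans chr2:122147686-122153083 on the plus strand of mm10, and none of its exon sequence recurs in another annotated gene over stretches of 50 bases.

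The classical heavy chains H2-K1 and H2-D1 also had their highest means in Kit+ CD45+ cells. H2-K1 (chr17:33996017-34000333, minus strand) had 30.7, 39.9, 40.5 and 32.8 CPM in Kit+ CD45+ cells under anti-Dll4 and 40.8, 46.1, 47.7 and 37.6 CPM under IgG. It had 13.0, 18.6, 17.7 and 10.9 CPM in Kit+ CD45- cells under anti-Dll4 and 8.48, 14.4, 12.3 and 16.4 CPM under IgG. In Kit- CD41+ cells the values were 14.5, 19.7, 14.0 and 15.2 CPM under anti-Dll4 and 14.7, 21.8, 16.1 and 16.1 CPM under IgG. Every Kit+ CD45+ library was above every other library, while the other populations overlapped. The log2 fold changes of Kit+ CD45+ cells under IgG were 1.74 (SE 0.21, edgeR adjusted p = 1.55e-06) against Kit+ CD45- cells and 1.32 (SE 0.20, edgeR adjusted p = 1.51e-05) against Kit- CD41+ cells.

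H2-D1 (chr17:35262730-35267499, plus strand) had 80.2, 136, 143 and 107 CPM in Kit+ CD45+ cells under anti-Dll4 and 113, 157, 106 and 142 CPM under IgG. All of these were above every Kit+ CD45- library, which had 33.9 to 63.9 CPM under anti-Dll4 and 45.4 to 73.0 CPM under IgG, while anti-Dll4 replicate 1 lay within the Kit- CD41+ values of 65.7 to 82.7 CPM under anti-Dll4 and 62.8 to 99.4 CPM under IgG. H2-D1 averaged 117 ± 28.7 CPM in Kit+ CD45+ cells under anti-Dll4 and 130 ± 24.1 under IgG, 45.4 ± 12.9 in Kit+ CD45- cells under anti-Dll4 and 58.6 ± 12.1 under IgG, and 75.5 ± 7.72 in Kit- CD41+ cells under anti-Dll4 and 82.7 ± 18.0 under IgG (SD, n = 4). It exceeded Kit+ CD45- levels in Kit+ CD45+ cells under IgG by 1.14 (log2, SE 0.21, edgeR adjusted p = 0.000358). Against Kit- CD41+ cells the log2 fold change was 0.65 (SE 0.21, edgeR adjusted p = 0.0162), and the adjusted p was 0.0614 without Kit+ CD45+ IgG replicate 2, 0.053 without Kit- CD41+ IgG replicate 3 and 0.0667 without Kit- CD41+ IgG replicate 4. Sequence is shared in part: 9.6% of the 50-base stretches in H2-K1 exons and 12.8% of those in H2-D1 exons occur in another gene. The effect of this on their counts was not tested.

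Among the 13 class Ib heavy chains, 6 were tested, and those that passed did so in opposite directions. H2-M3, which in mice presents N-formylated peptides, had 7.82, 4.26, 5.33 and 4.56 CPM in Kit+ CD45+ cells under anti-Dll4 and 4.86, 7.57, 9.90 and 7.62 CPM under IgG. It had 0.683 to 2.70 CPM in Kit+ CD45- cells under anti-Dll4 and 0.755 to 3.14 under IgG, and 0.806 to 1.81 CPM in Kit- CD41+ cells under anti-Dll4 and 0.501 to 1.59 under IgG. No library of the other populations reached the lowest Kit+ CD45+ library. The log2 fold change under IgG was 1.78 (SE 0.45, edgeR adjusted p = 0.00704) against Kit+ CD45- cells and 2.86 (SE 0.48, edgeR adjusted p = 4.27e-05) against Kit- CD41+ cells.

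H2-T23 (Qa-1), the ligand of the CD94/NKG2A inhibitory receptor, was instead highest in Kit- CD41+ cells. It had 2.89, 7.20, 2.67 and 0.912 CPM in Kit+ CD45+ cells under anti-Dll4 and 2.26, 4.24, 6.24 and 4.21 CPM under IgG. Kit+ CD45- cells had 3.01, 4.16, 1.30 and 3.72 CPM under anti-Dll4 and 1.75, 5.06, 1.46 and 5.29 CPM under IgG. Kit- CD41+ cells had 12.4, 11.9, 11.0 and 8.79 CPM under anti-Dll4 and 11.1, 14.3, 13.5 and 8.10 CPM under IgG. All 8 Kit- CD41+ libraries were above all 16 others. Under IgG it was lower by log2 -1.47 (SE 0.48, edgeR adjusted p = 0.0181) in Kit+ CD45+ cells and by -1.81 (SE 0.49, edgeR adjusted p = 0.00756) in Kit+ CD45- cells, each against Kit- CD41+ cells. For Kit+ CD45+ cells the adjusted p was 0.0623 without Kit+ CD45+ IgG replicate 1. A list of 12 megakaryocyte and platelet markers was also highest in Kit- CD41+ cells, with all 12 detected in each group. Their summed level was 392 to 588 CPM (anti-Dll4) and 114 to 364 CPM (IgG) in Kit+ CD45+ libraries. It was 565 to 1686 CPM (anti-Dll4) and 816 to 3821 CPM (IgG) in Kit+ CD45- libraries. Kit- CD41+ libraries had 22924 to 29140 CPM (anti-Dll4) and 22657 to 29709 CPM (IgG). Under IgG the median marker sum was 300 CPM in Kit+ CD45+ and 3012 CPM in Kit+ CD45- libraries. Mean H2-T23 in these was 4.24 and 3.39 CPM, a difference that did not pass (log2 0.34, SE 0.49, edgeR adjusted p = 0.695). The part of cells with these markers in the result was not tested.

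H2-T22 and H2-T24 also had their highest means in Kit- CD41+ cells. H2-T22, a ligand of gamma delta T cell receptors in mice, averaged under IgG 3.61 ± 1.82 CPM in the Kit+ CD45+, 4.93 ± 0.824 in the Kit+ CD45- and 8.96 ± 1.64 in the Kit- CD41+ population (SD, n = 4). H2-T24 averaged 1.54 ± 0.385, 2.26 ± 0.847 and 4.32 ± 0.737 CPM in the same populations (SD, n = 4). In Kit+ CD45+ against Kit- CD41+ cells under IgG the log2 fold change was -1.31 (SE 0.44, edgeR adjusted p = 0.0206) for H2-T22 and -1.48 (SE 0.38, edgeR adjusted p = 0.00337) for H2-T24. The H2-T22 adjusted p was 0.0724 without Kit+ CD45+ IgG replicate 1, 0.0551 without Kit+ CD45+ IgG replicate 4 and 0.0513 without Kit- CD41+ IgG replicate 2. Of the 50-base stretches in H2-T22 exons, 53.5% occur in other genes such as H2-T10, so its counts are uncertain.

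The other class Ib chains were near the floor of the data. H2-Q7 ranged from 0.0855 to 1.91 CPM over the 24 libraries and passed in no comparison; in Kit+ CD45+ cells under IgG its log2 fold change was -0.71 (SE 0.66, edgeR adjusted p = 0.508) against Kit+ CD45- cells and -0.29 (SE 0.67, edgeR adjusted p = 0.772) against Kit- CD41+ cells, and H2-Q2 had counts in 6 libraries only. H2-Q1, H2-Q4, H2-Q6, H2-Q10, H2-M5, H2-M10.2 and H2-T3 reached at most 1.2 CPM. H2-Ke6, which carries an H2- name but encodes a hydroxysteroid dehydrogenase, ranged from 0.418 to 1.80 CPM and did not pass in any comparison.

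**Figure D2:**
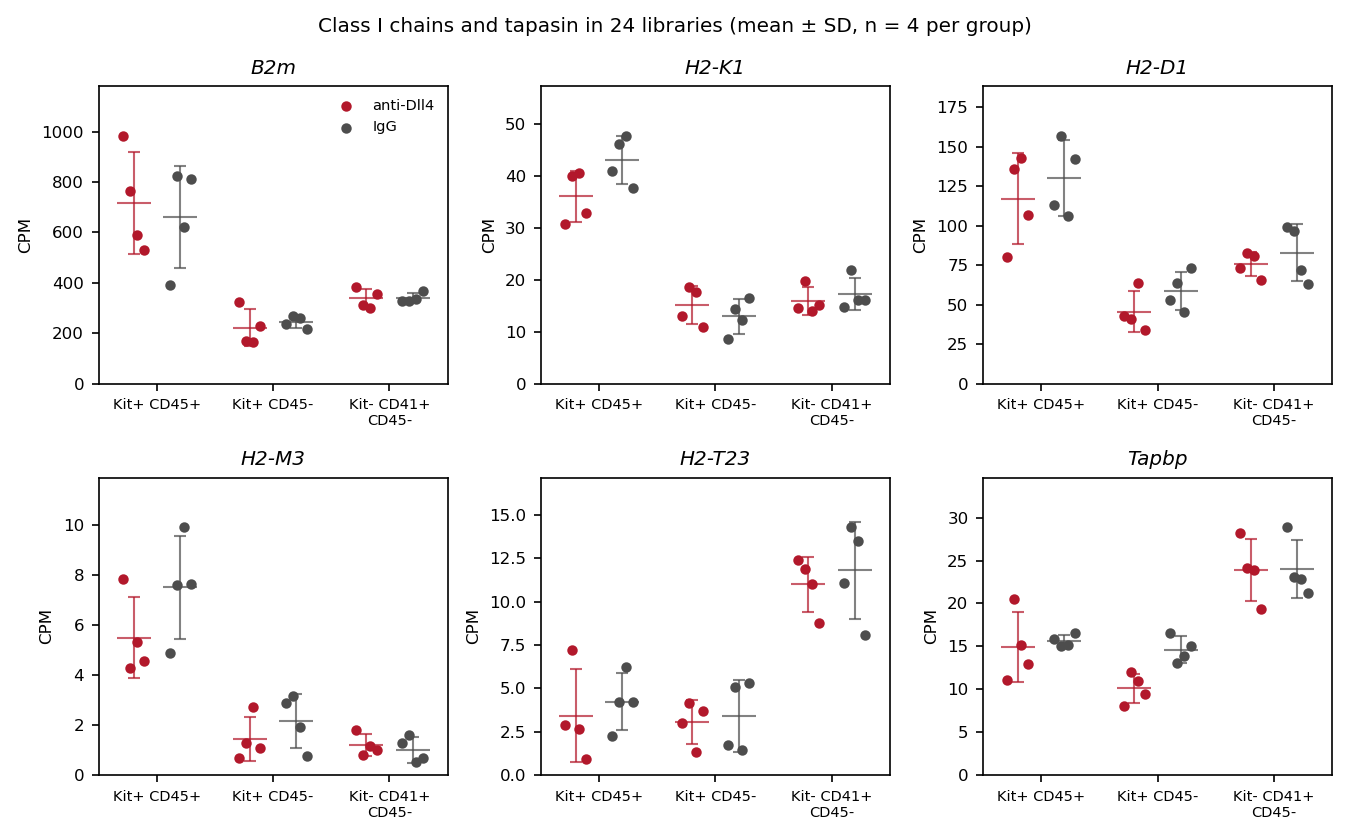
CPM per library (y axis, 1 point per library, starting at 0) of 6 class I pathway genes in the 3 populations under anti-Dll4 (red) and IgG (grey), with mean and SD (n = 4). B2m, H2-K1 and H2-M3 are highest in all Kit+ CD45+ libraries, and H2-T23 is highest in the Kit- CD41+ libraries.

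Of the peptide loading genes, tapasin was the only 1 with more than 5 CPM. Tapbp had 11.1, 20.5, 15.2 and 12.9 CPM in Kit+ CD45+ cells under anti-Dll4 and 15.9, 15.0, 15.1 and 16.6 CPM under IgG. It had 8.06, 12.0, 11.0 and 9.40 CPM in Kit+ CD45- cells under anti-Dll4 and 16.6, 13.0, 13.9 and 15.0 CPM under IgG. Kit- CD41+ cells had 28.2, 24.1, 23.9 and 19.3 CPM under anti-Dll4 and 28.9, 23.1, 22.8 and 21.2 CPM under IgG. The Kit- CD41+ IgG libraries were above all other IgG libraries, and the log2 fold change under IgG was -0.62 (SE 0.19, edgeR adjusted p = 0.0108) in Kit+ CD45+ cells and -0.72 (SE 0.19, edgeR adjusted p = 0.00569) in Kit+ CD45- cells, each against Kit- CD41+ cells. Its exons overlap those of Gm19412 on the other strand by 904 bases and those of Zbtb22 by 149 bases, and the sources used here do not say whether the counting used strand.

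Transcripts of the peptide transporter were sparse. Tap1 had 11, 6, 1 and 7 counts in Kit+ CD45+ cells under anti-Dll4 and 37, 36, 13 and 33 counts under IgG. In the other 4 groups together it was counted in 4 of 16 libraries, with at most 13 counts. Against the 1 count in the 4 Kit- CD41+ IgG libraries, the ratio of Kit+ CD45+ IgG cells was 95.1, with an exact 95% counting interval of 16.7 to 3787 (edgeR adjusted p = 0.00415). The partner Tap2 reached 4.82 CPM in Kit+ CD45+ cells and passed in no comparison.

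The immunoproteasome subunits divided into a pair that differed between populations and a subunit that did not pass. Psmb8 (LMP7; chr17:34197721-34201454, plus strand) had 26.4, 35.4, 16.7 and 16 CPM in Kit+ CD45+ cells under anti-Dll4 and 12.2, 28.0, 21.7 and 39.4 CPM under IgG. It had 1.23, 2.14, 2.60 and 0.219 CPM in Kit+ CD45- cells under anti-Dll4 and 0, 1.37, 0.448 and 1.89 CPM under IgG. In Kit- CD41+ cells it had 0.301, 0.101, 0.731 and 0.778 CPM under anti-Dll4 and 0.855, 0.708, 1.4 and 1.89 CPM under IgG. No library outside Kit+ CD45+ cells came near the lowest Kit+ CD45+ value of 12.2 CPM. Under IgG the log2 fold change of Kit+ CD45+ cells was 4.83 (SE 0.66, edgeR adjusted p = 1.05e-05) against Kit+ CD45- cells and 4.39 (SE 0.63, edgeR adjusted p = 5.94e-06) against Kit- CD41+ cells.

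Psmb9 (LMP2; chr17:34181988-34187764, minus strand) showed the same split at a lower level. It had 12.4, 8.68, 6.45 and 8.77 CPM in Kit+ CD45+ cells under anti-Dll4 and 2.86, 10.7, 7.16 and 15.3 CPM under IgG, and at most 1.00 CPM in any other library. The log2 fold change under IgG was 4.86 (SE 0.98, edgeR adjusted p = 0.000933) against Kit+ CD45- cells and 4.90 (SE 0.97, edgeR adjusted p = 0.0003) against Kit- CD41+ cells. Psmb9 lies head to head with Tap1 (chr17:34187553-34197225, plus strand): their RefSeq starts are 226 bases apart, their exons overlap by 212 bases on opposite strands, and the 300-base promoter windows share 275 bases. The Psmb9 window, chr17:34187281-34187580 of GRCm38.p6 on the minus strand, is shown because under IgG the genes on both of its sides were higher in Kit+ CD45+ than in Kit- CD41+ cells. Under anti-Dll4 Psmb9 passed there and Tap1 did not (log2 0.62, SE 1.21, edgeR adjusted p = 0.728). Capitals mark CGTCA, which on the other strand reads TGACG, and the Y box letters ATTGG.
Psmb9: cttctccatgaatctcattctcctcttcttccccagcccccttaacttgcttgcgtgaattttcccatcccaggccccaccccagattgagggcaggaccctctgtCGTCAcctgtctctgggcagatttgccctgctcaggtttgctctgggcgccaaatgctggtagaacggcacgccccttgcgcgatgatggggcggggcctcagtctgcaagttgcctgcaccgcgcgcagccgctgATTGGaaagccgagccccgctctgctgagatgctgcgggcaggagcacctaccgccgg

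Psmb10 (MECL-1), which lies outside the MHC on chromosome 8, passed in no comparison. Its means were 89.4 ± 25.3 CPM in Kit+ CD45+ cells under anti-Dll4 and 88.0 ± 34.7 under IgG, 79.8 ± 19.4 in Kit+ CD45- cells under anti-Dll4 and 63.4 ± 24.6 under IgG, and 70.6 ± 9.31 in Kit- CD41+ cells under anti-Dll4 and 71.5 ± 17.3 under IgG (SD, n = 4). Its groups overlapped, and the log2 fold change under IgG was 0.47 (SE 0.28) in Kit+ CD45+ against Kit+ CD45- cells, with an edgeR adjusted p of 0.261. The constitutive subunits that the 3 immunoproteasome subunits replace, Psmb5, Psmb6 and Psmb7, were tested beside them. Under IgG, Psmb7 was lower in Kit+ CD45+ than in Kit+ CD45- cells, with means of 321 and 479 CPM (log2 -0.58, SE 0.16, edgeR adjusted p = 0.0146), and none of the 3 passed against Kit- CD41+ cells.

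Among the class II genes, Cd74 and H2-Ab1 alone averaged more than 5 CPM in a group. Cd74, the invariant chain, had 145, 122, 34 and 220 counts in Kit+ CD45+ cells under anti-Dll4 and 147, 359, 174 and 137 counts under IgG, or 13.5, 9.45, 2.92 and 15.4 CPM under anti-Dll4 and 9.78, 27.2, 13.3 and 12.3 CPM under IgG. It had 1 count over the 4 Kit+ CD45- anti-Dll4 libraries and 7 over the 4 Kit+ CD45- IgG libraries, and 1 count over the 4 Kit- CD41+ anti-Dll4 libraries and 0 over the 4 Kit- CD41+ IgG libraries. Under IgG it was higher in Kit+ CD45+ than in Kit+ CD45- cells by log2 6.19 (SE 0.78, edgeR adjusted p = 7.83e-06). Against Kit- CD41+ IgG cells it was at least 54.1-fold higher, taking 3 counts per library as the floor (edgeR adjusted p = 2.12e-07).

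Unlike Cd74, the tested class II chains H2-Ab1 and H2-Eb1 passed in no population comparison under IgG. H2-Ab1, the beta chain of I-A, had 25.4, 23.9, 6.88 and 25.7 CPM in Kit+ CD45+ cells under anti-Dll4 and 17.7, 21.8, 36.3 and 17.3 CPM under IgG. It had 8.47, 9.45, 14.7 and 7.87 CPM in Kit+ CD45- cells under anti-Dll4 and 10.2, 13.9, 14.8 and 11.6 CPM under IgG. It had 31.6, 21.2, 19.5 and 24.9 CPM in Kit- CD41+ cells under anti-Dll4 and 17, 9.65, 30.3 and 22.6 CPM under IgG. It was thus present in all 24 libraries and overlapped between Kit+ CD45+ and Kit- CD41+ cells, with a log2 fold change under IgG of 0.23 (SE 0.35) and an edgeR adjusted p of 0.65. Every Kit+ CD45+ IgG library was above every Kit+ CD45- IgG library in H2-Ab1, but the difference did not pass (log2 0.88, SE 0.36, edgeR adjusted p = 0.0871). The alpha chain with which it pairs, H2-Aa, was counted in 2 libraries, with 7 counts in Kit+ CD45+ anti-Dll4 replicate 4 and 1 in Kit+ CD45- anti-Dll4 replicate 1. None of the 50-base stretches in H2-Ab1 exons occurs in another annotated gene.

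The other class II members were low. H2-Eb1, the beta chain of I-E, ranged from 0.200 to 2.34 CPM, and H2-Eb2 had 3 counts, all in Kit+ CD45+ IgG replicate 1. Under IgG, H2-Eb1 was higher in Kit+ CD45+ than in Kit+ CD45- cells without overlap, but did not pass (log2 1.05, SE 0.65, edgeR adjusted p = 0.287). H2-DMa, a chain of the peptide exchanger H2-DM, averaged 2.71 ± 2.31 CPM in Kit+ CD45+ cells under anti-Dll4 and 2.01 ± 0.532 under IgG, 0.716 ± 0.752 in Kit+ CD45- cells under anti-Dll4 and 1.07 ± 0.781 under IgG, and 2.53 ± 0.434 in Kit- CD41+ cells under anti-Dll4 and 1.97 ± 1.12 under IgG (SD, n = 4). Its 0 to 1.64 CPM in Kit+ CD45- cells under anti-Dll4 lay below the 2.0 to 3.01 CPM of Kit- CD41+ cells under anti-Dll4, but the difference did not pass (log2 -1.80, SE 0.77, edgeR adjusted p = 0.0816), and its IgG groups overlapped. The partners H2-DMb1 and H2-DMb2 reached 0.602 and 0.896 CPM, with 22.7% and 25.9% of their 50-base stretches shared with other genes. H2-Oa, a chain of the H2-DM inhibitor H2-O, ranged up to 2.51 CPM, and its partner H2-Ob had counts in 2 libraries.

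The coactivators were at or near 0. Nlrc5 had 6 counts, all in Kit+ CD45+ IgG replicate 2. Ciita had 1 count in each Kit+ CD45+ group, 0 counts in Kit+ CD45- cells under anti-Dll4 and 6 counts in a single Kit+ CD45- IgG library. In Kit- CD41+ cells it had 19, 7, 19 and 10 counts under anti-Dll4 and 21, 9, 2 and 7 counts under IgG. Ciita transcripts were thus counted in 2 of the 8 Kit+ CD45+ libraries, where Cd74 was highest, and in all 8 Kit- CD41+ libraries, where Cd74 had 1 count in all. Ciita was not tested, because its counts did not pass the filter. Its exons overlap those of Dexi on the other strand by 329 bases, and whether the counting used strand is not stated.

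**Figure D3:**
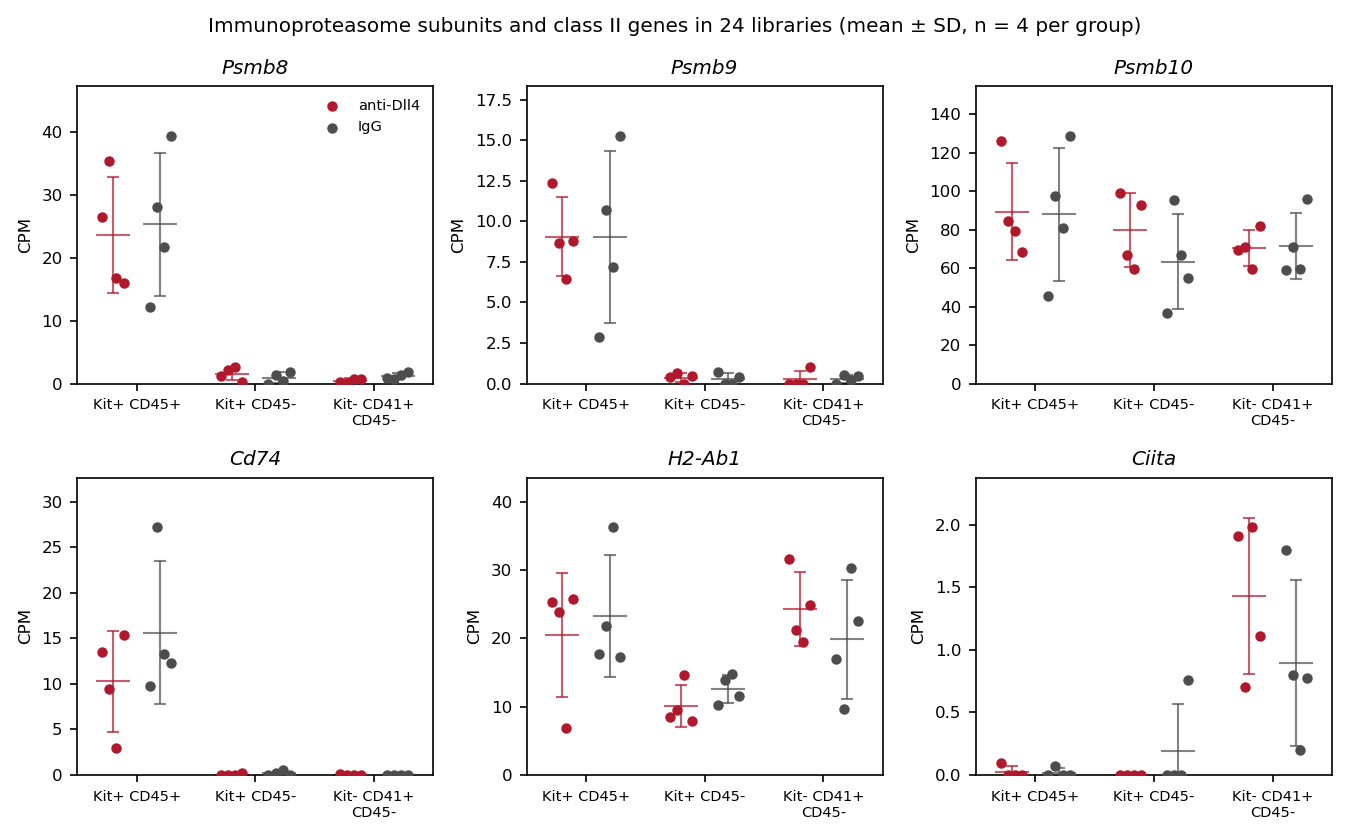
CPM per library (y axis, 1 point per library, starting at 0) of 3 immunoproteasome subunits and 3 class II genes in the 3 populations under anti-Dll4 (red) and IgG (grey), with mean and SD (n = 4). Psmb8, Psmb9 and Cd74 stand out in Kit+ CD45+ libraries, Psmb10 and H2-Ab1 are present in every group, and Ciita lies mainly in Kit- CD41+ libraries, at up to 1.98 CPM.

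Per kilobase of exon, the members can be set against each other roughly. The length was that of all annotated exons of a gene together, which can exceed the transcript present, and the cDNA was amplified. In Kit+ CD45+ cells under IgG the level was 770 CPM per kb for B2m, 51.6 for Psmb10, 50.2 for H2-D1, 14.6 for H2-K1, 9.30 for Cd74, 9.07 for H2-Ab1, 7.49 for Psmb8 and 4.31 for Tapbp. Levels in Kit+ CD45- cells under IgG were 285 CPM per kb for B2m, 37.2 for Psmb10, 22.7 for H2-D1, 4.38 for H2-K1 and 0.274 for Psmb8. On this scale the light chain exceeded each heavy chain in both populations, and Psmb10 exceeded Psmb8 in both.

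In Kit+ CD45+ cells, the library with the lowest sum of macrophage markers had the lowest level of some members and not of others. The summed level of the 16 markers was 2547, 3198, 1819 and 1579 CPM in anti-Dll4 replicates 1 to 4 and 507, 3562, 2478 and 3632 CPM in IgG replicates 1 to 4. Psmb8 was lowest (12.2 CPM) in the library with the lowest sum, IgG replicate 1, and highest (39.4 CPM) in the library with the highest sum, IgG replicate 4. Psmb9 and B2m were also lowest in IgG replicate 1, at 2.86 and 391 CPM. H2-K1 had 40.8 CPM there, inside the range of 30.7 to 47.7 CPM of the other 7 libraries, and Cd74 had 9.78 CPM, inside their range of 2.92 to 27.2 CPM. B2m was highest, at 985 CPM, in anti-Dll4 replicate 1, where the sum was 2547 CPM. In IgG replicate 1 Psmb8, Psmb9, B2m, H2-K1 and Cd74 were each above all 16 libraries of the other populations. Its marker sum of 507 CPM lay between those of Kit+ CD45- libraries (at most 196 CPM) and Kit- CD41+ libraries (at least 941 CPM). Under IgG the median marker sum was 3020 CPM in Kit+ CD45+, 183 CPM in Kit+ CD45- and 1039 CPM in Kit- CD41+ libraries. The means of B2m, H2-K1 and H2-D1 had the same order, but none of them passed between Kit+ CD45- and Kit- CD41+ cells. Psmb8 and Psmb9 were low in both, at 0.926 and 0.279 CPM in Kit+ CD45- and 1.21 and 0.294 CPM in Kit- CD41+ cells. H2-M3 and Cd74 had the other order there, with 2.17 and 0.208 CPM in Kit+ CD45- and 1.01 and 0 CPM in Kit- CD41+ cells. Neither passed (edgeR adjusted p of 0.0955 and 0.0555), and Cd74 rested on 7 counts in 2 Kit+ CD45- libraries. A list of 12 B cell and dendritic cell markers summed to 50.4 to 57.1 CPM under anti-Dll4 and 51.6 to 62.4 CPM under IgG in Kit+ CD45+ libraries, with 11 of 12 detected and Pax5 at 0. The same sum was 13.9 to 23.1 CPM (anti-Dll4) and 16.9 to 31.4 CPM (IgG) in Kit+ CD45- libraries, and 26.8 to 35.7 CPM (anti-Dll4) and 27.7 to 36.5 CPM (IgG) in Kit- CD41+ libraries, and Itgax and Siglech were at 0 in all 4 of these groups. Both marker lists were thus highest in the population with the highest Cd74. So was a list of 12 endothelial markers, with IgG medians of 2562 CPM in Kit+ CD45+, 1336 in Kit+ CD45- and 547 in Kit- CD41+ libraries. Lists of erythroid, mesenchyme, and megakaryocyte and platelet markers had their lowest medians in Kit+ CD45+ libraries. The part of such cells in the levels was not tested.

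**Figure D4:**
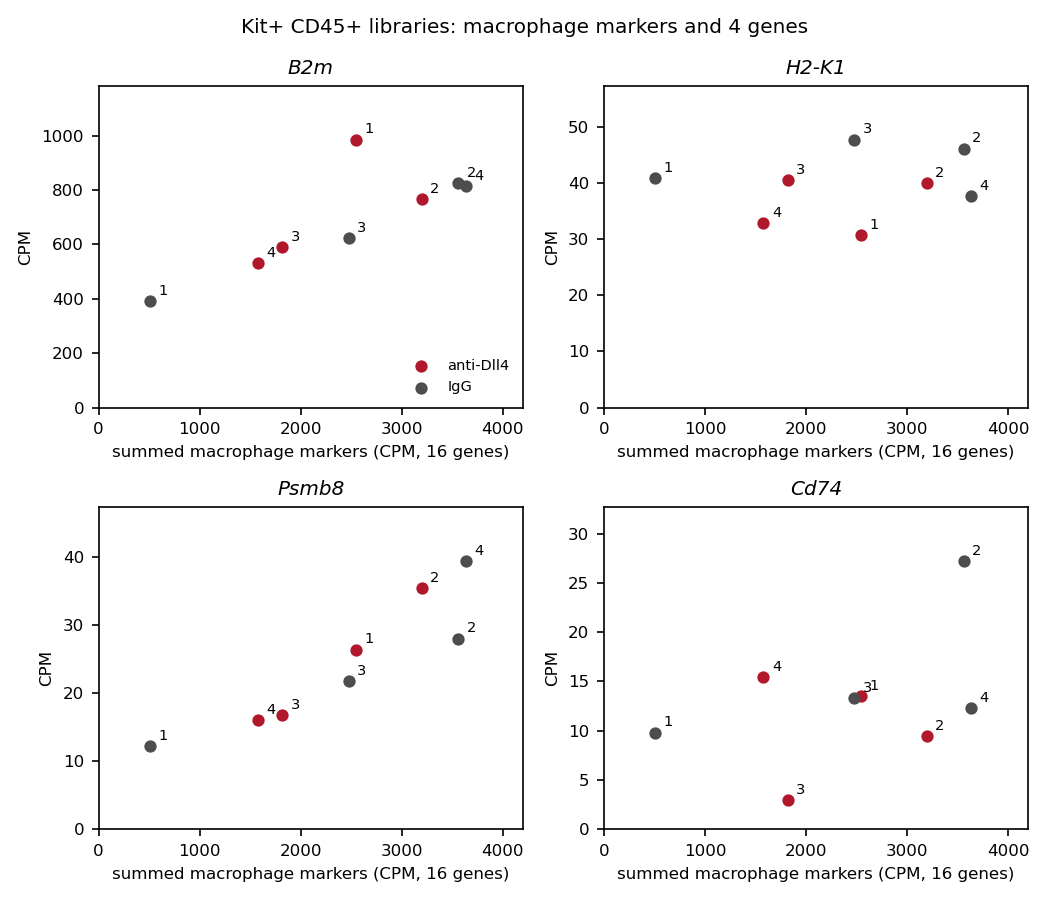
CPM of B2m, H2-K1, Psmb8 and Cd74 (y axes) against the summed CPM of 16 macrophage markers (x axis) in the 8 Kit+ CD45+ libraries, numbered by replicate, anti-Dll4 in red and IgG in grey. IgG replicate 1, at 507 CPM of markers, has the lowest B2m and Psmb8 of the 8 but not the lowest H2-K1 or Cd74.

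The population differences were measured again in the 12 anti-Dll4 libraries, which share none with IgG. Kit+ CD45+ against Kit+ CD45- cells gave 9 higher and 0 lower of 21, where 29.2% of all genes passed, 16.6% as higher and 12.6% as lower: the 7 genes found under IgG, with log2 fold changes of 1.70 (SE 0.22) for B2m, 1.25 (SE 0.21) for H2-K1, 1.36 (SE 0.21) for H2-D1, 1.89 (SE 0.47) for H2-M3, 3.83 (SE 0.62) for Psmb8 and 4.65 (SE 0.98) for Psmb9, and in addition Tapbp and H2-Ab1. Cd74 had a ratio of 314 there, with an exact 95% counting interval of 56.1 to 12422, because the 4 Kit+ CD45- libraries held 1 count. The H2-Ab1 call (log2 1.00, SE 0.36, edgeR adjusted p = 0.0399) and the Tapbp call (0.56, SE 0.19, edgeR adjusted p = 0.0297) did not hold under other settings. H2-Ab1 missed the threshold under 6 of the 9 settings that kept all libraries (adjusted p of 0.0521 to 0.0974) and Tapbp under 5 of the 9 (0.0536 to 0.198), and each was also lost without some single libraries. The H2-Ab1 adjusted p reached 0.0999 without Kit+ CD45- anti-Dll4 replicate 1, 0.0912 without replicate 2 and 0.116 without replicate 4 of that group, and 0.0888, 0.0913 and 0.109 without Kit+ CD45+ anti-Dll4 replicates 1, 2 and 4. The Tapbp adjusted p reached 0.108 and 0.0831 without Kit+ CD45- anti-Dll4 replicates 1 and 4, and 0.161 and 0.0555 without Kit+ CD45+ anti-Dll4 replicates 2 and 3.

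Kit+ CD45+ against Kit- CD41+ cells under anti-Dll4 gave 7 higher (B2m, H2-K1, H2-D1, H2-M3, Psmb8, Psmb9 and Cd74) and 3 lower (Tapbp, H2-T23 and H2-T24), where 37.6% of all genes passed, 20.4% as higher and 17.3% as lower. Psmb8 had a log2 fold change of 5.61 (SE 0.70, edgeR adjusted p = 8.13e-07) and H2-T23 one of -1.68 (SE 0.49, edgeR adjusted p = 0.00829). The H2-D1 call (0.63, SE 0.21, edgeR adjusted p = 0.0198) was lost without Kit+ CD45+ anti-Dll4 replicate 2 or 3 or Kit- CD41+ anti-Dll4 replicate 4, with adjusted p up to 0.0759, and the H2-T24 call (-1.0, SE 0.37, edgeR adjusted p = 0.0387) was lost without Kit+ CD45+ anti-Dll4 replicate 1, 2 or 3 or any Kit- CD41+ anti-Dll4 library, with adjusted p up to 0.122. Kit+ CD45- against Kit- CD41+ cells under anti-Dll4 gave 7 lower and 0 higher, where 29.9% of all genes passed, 14.7% as higher and 15.2% as lower: B2m, H2-D1, Tapbp, H2-Ab1, H2-T22, H2-T23 and H2-T24. Of these, Tapbp (-1.24, SE 0.19, edgeR adjusted p = 2.64e-05), H2-T23 (-1.87, SE 0.50, edgeR adjusted p = 0.00628), H2-Ab1 (-1.25, SE 0.36, edgeR adjusted p = 0.011) and H2-D1 (-0.73, SE 0.21, edgeR adjusted p = 0.0104) held without any single library, although H2-Ab1 had an adjusted p of 0.0909 without anti-Dll4 replicate 1 of every population. B2m (-0.61, SE 0.22, edgeR adjusted p = 0.0393) was not called without Kit+ CD45- anti-Dll4 replicate 2, 3 or 4 or Kit- CD41+ anti-Dll4 replicate 1, 2 or 4, with adjusted p up to 0.124. H2-T24 (-1.08, SE 0.39, edgeR adjusted p = 0.0366) was not called without Kit+ CD45- anti-Dll4 replicate 2 or 3 or Kit- CD41+ anti-Dll4 replicate 1, 2 or 3, with adjusted p up to 0.12. The H2-T22 call (-1.34, SE 0.45, edgeR adjusted p = 0.0269) had an adjusted p of 0.0911 and 0.0752 without Kit+ CD45- anti-Dll4 replicates 3 and 4 and of 0.122 without Kit- CD41+ anti-Dll4 replicate 1, and without that library 4 of the 7 genes were called.

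No member passed the test between anti-Dll4 and IgG. The count was 0 of 21 in Kit+ CD45+ cells, where 0.00640% of all genes passed, 0 of 21 in Kit+ CD45- cells, where 0% passed, and 0 of 21 in Kit- CD41+ cells, where 0% passed. It was also 0 of 21 for the mean effect over the 3 populations, where 0% passed, and 0 of 21 for the difference of the effect between populations, where 0.0256% passed. DESeq2 called 0 members in each of these 5 comparisons as well. At an unadjusted edgeR p below 0.05 there was 1 member in the Kit+ CD45- population, 0 in the Kit+ CD45+ and 0 in the Kit- CD41+ population, 0 for the mean effect and 1 for the difference. Of all genes 11.1% were below that p in Kit+ CD45-, 2.90% in Kit+ CD45+ and 2.79% in Kit- CD41+ cells, 8.39% for the mean effect and 4.04% for the difference. The median log2 fold change of the 21 genes was -0.15 in Kit+ CD45+, -0.31 in Kit+ CD45- and -0.02 in Kit- CD41+ cells, beside 0.00, -0.03 and -0.01 over all genes. Since at most 0.0256% of genes passed after adjustment in these comparisons, the members' count does not set them apart from other genes.

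The members with the smallest p under anti-Dll4 were as follows. In Kit+ CD45- cells Tapbp had 8.06 to 12.0 CPM under anti-Dll4 and 13.0 to 16.6 CPM under IgG, groups that did not overlap, with a log2 fold change of -0.53 (SE 0.19, edgeR adjusted p = 0.356). H2-T22 had -0.79 (SE 0.45, edgeR adjusted p = 0.504) and H2-D1 -0.36 (SE 0.21, edgeR adjusted p = 0.509) there. In Kit+ CD45+ cells Tap1 averaged 0.517 ± 0.386 CPM under anti-Dll4 and 2.28 ± 0.886 CPM under IgG (SD, n = 4), with a log2 fold change of -2.13 (SE 1.15, edgeR adjusted p = 1), and H2-K1 had -0.26 (SE 0.20, edgeR adjusted p = 1). H2-Q2, with 0 counts under anti-Dll4 and counts in 1 of 4 IgG libraries in each Kit+ population, gives no fold. In Kit- CD41+ cells Tap1 had counts in 1 library of each group, 13 under anti-Dll4 and 1 under IgG, Psmb8 had -1.32 (SE 0.73, edgeR adjusted p = 1), and Cd74 had 1 count under anti-Dll4 and 0 under IgG. For the mean effect H2-D1 had -0.22 (SE 0.12, edgeR adjusted p = 0.613) and Tapbp -0.20 (SE 0.11, edgeR adjusted p = 0.603). The test of the difference between populations gave an unadjusted p of 0.0386 for Tap1, with an edgeR adjusted p of 1.

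**Figure D5:**
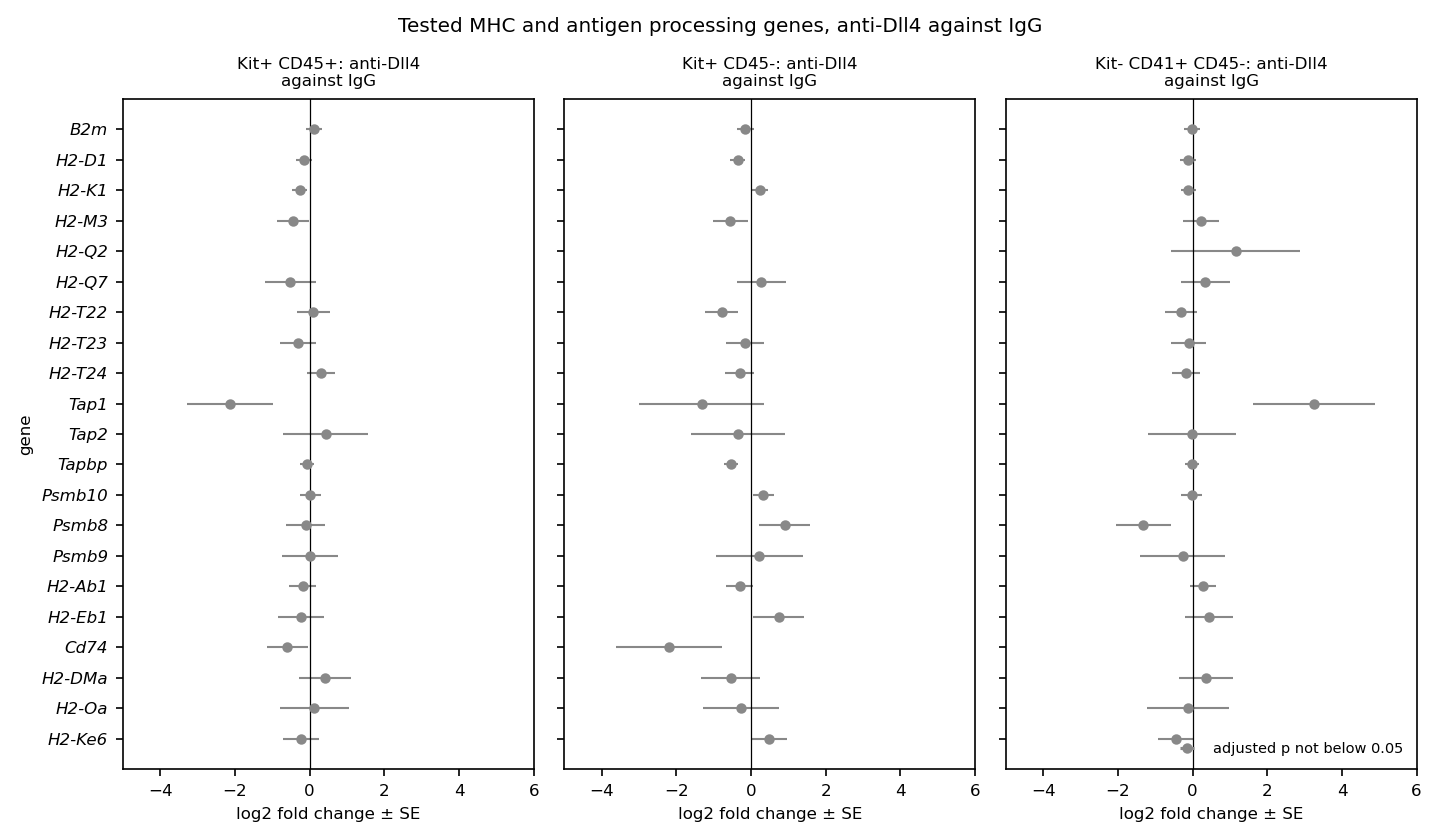
Log2 fold change ± SE (x axis) of anti-Dll4 against IgG for the 21 tested genes (y axis, ordered by role) in the 3 populations, leaving out genes with 0 counts in a group. None passed an adjusted p of 0.05; Tapbp in Kit+ CD45- cells, at -0.53, has the smallest p there.

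Other genes of the pathway came from lists of 61 genes with a known place in it, of which 58 were tested. Between anti-Dll4 and IgG, 0 of the 58 passed in any population, at the background shares given above. Under IgG, 21 were higher and 6 lower in Kit+ CD45+ than in Kit+ CD45- cells, 20 were higher and 6 lower in Kit+ CD45+ than in Kit- CD41+ cells, and 10 were higher and 12 lower in Kit+ CD45- than in Kit- CD41+ cells. These shares stand beside the 19.2%, 37.2% and 27.9% of all genes.

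Receptors and transcription factors through which interferons act on MHC genes were mostly higher in Kit+ CD45+ cells under IgG. Against Kit+ CD45- cells 7 of 12 were higher and 0 lower, where 10.0% of all genes were higher and 9.18% lower. Against Kit- CD41+ cells 8 were higher and 1 lower, where 19.7% of all genes were higher and 17.5% lower. Irf8, a factor of myeloid cells, had 49.2, 64.5, 50.3 and 65.0 CPM in the Kit+ CD45+ population under IgG, 6.18, 2.73, 1.35 and 3.65 CPM in the Kit+ CD45- and 0, 1.06, 0 and 0.222 CPM in the Kit- CD41+ population. Ifngr1, a chain of the interferon gamma receptor, averaged under IgG 165 CPM in the Kit+ CD45+, 55.1 in the Kit+ CD45- and 21.8 in the Kit- CD41+ population, and was higher in the first than in each of the others by log2 1.59 (SE 0.25) and 2.92 (SE 0.26), with edgeR adjusted p of 6.18e-05 and 6.45e-09. Jak2, a kinase of that receptor, was lower in Kit+ CD45+ than in Kit- CD41+ cells, at 13.6 and 41.4 CPM (log2 -1.60, SE 0.25, edgeR adjusted p = 2.07e-05). Irf1, which binds class I promoters, averaged 21.8 CPM in Kit+ CD45+ cells and 2.99 CPM in Kit- CD41+ cells under IgG (log2 2.87, SE 0.72, edgeR adjusted p = 0.00272).

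Interferon response genes outside the MHC went in both directions. Of 15 tested, 7 were higher and 3 lower in Kit+ CD45+ than in Kit+ CD45- cells under IgG, where 10.0% of all genes were higher and 9.18% lower. Against Kit- CD41+ cells 4 were higher and 2 lower, where 19.7% of all genes were higher and 17.5% lower. That second count is near the share of all genes. The guanylate-binding protein gene Gbp7 averaged 14.8 CPM in the Kit+ CD45+, 1.22 in the Kit+ CD45- and 4.4 in the Kit- CD41+ population. The ubiquitin-like modifier Isg15 had 0, 0.303, 0.228 and 0.179 CPM in the Kit+ CD45+ population under IgG, 0.277, 1.91, 2.13 and 1.01 CPM in the Kit+ CD45- and 26.4, 10.3, 18.2 and 12.3 CPM in Kit- CD41+ cells. Igtp, an interferon-induced GTPase, averaged 3.05, 11.9 and 81.0 CPM in the same populations and was lower in Kit+ CD45+ than in Kit- CD41+ cells by log2 -4.74 (SE 0.54, edgeR adjusted p = 2.09e-07). Isg15 and Igtp thus had their highest level in the population with the highest H2-T23, and Gbp7 in the population with the highest Psmb8.

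Among genes of class II processing, 4 of 9 were higher and 0 lower in Kit+ CD45+ than in Kit+ CD45- cells under IgG, and 6 were higher and 1 lower than in Kit- CD41+ cells. The shares over all genes were 10.0% higher and 9.18% lower in the first comparison, and 19.7% higher and 17.5% lower in the second. Cathepsin S (Ctss), which trims the invariant chain, had 25.7, 143, 82.9 and 123 CPM in Kit+ CD45+ cells under IgG, 0 in every Kit+ CD45- library and at most 0.200 CPM in Kit- CD41+ cells. Ctss is also 1 of the 16 macrophage markers. Erap1, which trims class I peptides in the endoplasmic reticulum, had 25.3, 28.8, 25.9 and 22.4 CPM in Kit+ CD45+ cells under IgG, 7.65, 11.5, 3.36 and 6.67 CPM in Kit+ CD45- cells and 6.67, 2.21, 6.11 and 4.66 CPM in Kit- CD41+ cells, groups of which the first did not overlap the others. Of the other 5 genes of class I folding and trimming, Calr was higher in Kit+ CD45+ than in Kit+ CD45- cells and Calr and Hspa5 were lower than in Kit- CD41+ cells. Fcgrt, the class I-like Fc receptor that pairs with B2m, averaged 54.0 CPM in Kit+ CD45+ cells and 6.55 CPM in Kit+ CD45- cells under IgG (log2 3.03, SE 0.59, edgeR adjusted p = 0.000653). Of the 7 subunits of the promoter complex that Ciita joins, 1 passed between Kit+ CD45+ and Kit+ CD45- cells, Nfyb, at 104 and 143 CPM (log2 -0.46, SE 0.14, edgeR adjusted p = 0.0267), and 0 passed between Kit+ CD45+ and Kit- CD41+ cells.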

How the data were processed

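Libraries of amplified polyA cDNA were grouped by their titles into 3 sorted populations and 2 antibodies. The build was mm10 and the tools named per the submitters' processing notes are STAR, HTSeq, DESeq2, FastQC and CASAVA 1.4; the sources used here do not give their order, the annotation release or the strand setting. The authors deposited raw counts per gene (29716 genes) and a log2 table, whose values equal log2(count / size factor + 1) within 5.3e-14 and were not tested; 1 column of it matched no sample in hand and was left out.

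CPM, fold changes and p-values were computed here from the deposited counts with edgeR 4.0.16 (R 4.3.3): TMM factors, filterByExpr by group, robust quasi-likelihood fit with 1 coefficient per group over 24 libraries (18 residual degrees of freedom), and Benjamini-Hochberg adjustment within each comparison. The steps were tested on simulated data. DESeq2 1.42.0 was an alternative. Replicates are samples whose embryos are not stated to be separate, so the spread behind the p-values may be technical. Reads carry no molecular identifiers, so floors (3 counts) and 95% intervals cover counting error only.

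Exon lengths and 50-base stretches shared with other genes come from GENCODE M21, in which all 35 genes were found by identifier, 23 at the same position. Promoters come from RefSeq (GRCm38.p6). Genes were named by a rule: 14 members with a set role, members past the threshold with at least 5 CPM (at most 8 in each direction), the 3 members of smallest p where none passed, and at most 4 genes per pathway list and comparison; H2-M3, H2-Q, H2-DM and other members stand beside them because every member is accounted for. The members and lists were chosen with earlier results of these data known. Alternatives were other scalings (RLE, upper quartile), filters, globin genes removed, replicate blocks, only the groups compared, DESeq2, each library left out in turn, and, chosen after seeing the data, the first IgG or anti-Dll4 replicate of every population left out.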

Additional observations from a re-analysis of the deposited data

Results flagged for a closer look

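H2-Ab1 had 6.88 CPM in Kit+ CD45+ anti-Dll4 replicate 3, far from the 23.9 to 25.7 CPM of the other 3 libraries of its group; the gap to the nearest was 0.904 of the range, above Dixon's 95% critical value for 4 samples. It was the only 1 of 48 gene and group combinations with a mean of at least 5 CPM to pass that value, where chance gives about 2.4.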

How the results depend on the processing

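The number of members called stayed within 1.5 times in 10 of the 11 comparisons under every alternative that kept all libraries. The exception was Kit+ CD45- against Kit- CD41+ cells under IgG, with 2 as reported and 4 with DESeq2, 4 with only the groups compared and 4 with a replicate block by set. With 1 library left out, the count was 0 to 0 for each anti-Dll4 effect, their mean and their difference. Under IgG it was 7 to 8 for Kit+ CD45+ against Kit+ CD45- cells, 9 to 13 for Kit+ CD45+ against Kit- CD41+ cells and 2 to 6 for Kit+ CD45- against Kit- CD41+ cells. The same ranges under anti-Dll4 were 7 to 9, 9 to 11 and 4 to 9. Of 47 calls of named members, 34 held under every alternative. Without IgG replicate 1 of every population, Tapbp, H2-T23 and H2-T22 missed the threshold between Kit+ CD45+ and Kit- CD41+ cells (adjusted p of 0.0532, 0.0632 and 0.114). Without anti-Dll4 replicate 1 of every population Tapbp missed it in the same comparison under anti-Dll4 (0.0616). The log2 fold change of Tap1 for anti-Dll4 against IgG in Kit- CD41+ cells, which rests on 13 counts in a single library, ranged from -1.58 to 4.82 with 1 library left out and was negative without anti-Dll4 replicate 2. That of Cd74 ranged from 0.00 to 1.96, and was 0.00 without anti-Dll4 replicate 1 of that group or of every population, since no count was left.

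Same-numbered anti-Dll4 and IgG libraries had correlations of deviations of -0.147 to 0.1, and 3 of 12 correlated best with their own number. Between populations of 1 antibody these were -0.064 to 0.197, with 6 of 24 above 0.1 and 16 of 24 highest with their own number, a hint from the data, since the labels do not say what a number marks. Not every pair was above 0.1, and the fits reported have no block, so any pairing within a set is left out of their p-values. With a replicate block the members called were 0 in each anti-Dll4 comparison, and 8, 12 and 2 under IgG and 9, 10 and 8 under anti-Dll4 for the 3 population comparisons in the order above. With a replicate block by set (antibody and number) they were 8, 12 and 4 under IgG and 8, 10 and 7 under anti-Dll4, where H2-Ab1 missed the threshold between Kit+ CD45+ and Kit+ CD45- cells (0.0682) and H2-T24 between Kit+ CD45+ (0.0561) or Kit+ CD45- (0.0548) and Kit- CD41+ cells. Over all genes, DESeq2 called 14, 75 and 2 genes for anti-Dll4 in Kit+ CD45+, Kit+ CD45- and Kit- CD41+ cells, 31 for the mean and 25 for the difference, against 1, 0, 0, 0 and 4. With upper-quartile scaling the all-gene median (log2) was 0.21 rather than 0.07 for Kit+ CD45- against Kit- CD41+ cells under anti-Dll4, where B2m and H2-T24 then missed the threshold (adjusted p of 0.139 and 0.0695). Depth limits the 14 untested members.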
